A study of Mus musculus with 80 samples.

Results

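The genes described here encode the factors that carry messenger RNA through translation. They were chosen by name: a spot had to hold exactly 1 gene symbol in the platform annotation, and the symbol had to begin with Eif1 to Eif6, Eef1 or Eef2, or be Etf1 or a Gspt gene, with the sex-chromosome pair Eif2s3x and Eif2s3y left out. The rule found 48 genes on 97 spots, out of 7151 genes on 9663 spots with 1 symbol and 16896 spots in all. Each gene is given by its spot of highest mean over the 40 mice. For 25 genes that was the only spot, and 23 genes had several. The name rule also brings in proteins that act on the factors: the kinases Eif2ak1, Eif2ak3, Eif2ak4 and Eef2k, the eIF4E-binding proteins Eif4ebp1 and Eif4ebp3, the eIF4E transporter Eif4enif1, the methyltransferase Eef1akmt1 and Eef1e1, a scaffold protein of the tRNA synthetase complex. Eif1ad, a nuclear protein with an eIF1A-like domain, is also included by name. Etf1 and Gspt1 are release factors, which end translation. Of 33 genes set down for description by role, 23 were measured. Eef1a2, Eef2, Eef1d, Eif1, Eif2s1, Eif2ak2, Eif4a2, Eif4ebp2, Eif4g1 and Eif5b were not analysed here.

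Translation begins when eIF2 brings the initiator tRNA to the small ribosomal subunit, with eIF3, eIF1 and eIF1A bound, and the eIF4 factors load this complex on the capped end of the message. eIF5 acts when the start codon is found, and eIF2B then recharges eIF2. Kinases that phosphorylate eIF2 block that step under amino acid shortage, unfolded protein stress or heme shortage. eEF1A delivers aminoacyl-tRNA during elongation, eEF1B (which includes Eef1b2 and Eef1g) recharges it, and eRF1 (Etf1) with eRF3 (Gspt1) releases the finished protein.

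The samples were lungs of C57BL/6 mice on regular feed without restriction, which all groups shared. No allele, drug or other treatment separated them. The design compared mice by age and gender. Both sexes were represented by 5 animals in each of 4 age groups, the youngest 17 to 44 days old. The next spanned 169 to 194 days, the third 476 to 499 days, and the oldest 704 to 743 days. Every mouse had 1 array for table A and 1 for table B of a cDNA clone set, hybridised with radioactively labelled cDNA. A level is a z score: the number of standard deviations by which a spot lay above or below the mean of its array. It therefore shows a gene relative to the other spots, gives no fold, and does not compare the amounts of different genes. Averaged over the rest of its sex and age group, the correlation between arrays was 0.869 to 0.962 on table A and 0.917 to 0.969 on table B. Of 11 lung epithelial markers 5 were measured, and 2 had a mean above 0; the surfactant proteins B and C were not among the 5. Both measured endothelial markers, Cdh5 and Pecam1, had means above 0. No heart or T cell marker was measured. In whole tissue, fewer cells of a type and less RNA per cell cannot be told apart.

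Promoters are shown for the genes that fell within the youngest mice and have 1 listed start. None of these genes passed after the position correction described below, and whether they are controlled together was not tested. RefSeq's table of starts (build GRCm38.p6) matched 35 of the 48 genes, with 50 starts. Each sequence gives the 100 bases before the start, on the gene's strand, with GGGCGG or its reverse complement (the GC box) in capitals: Gspt1 at chr16:11254326-11254425, minus strand, Eif1ad at chr19:5366713-5366812, plus strand, and Eif1ax at chrX:159372078-159372177, plus strand.
Gspt1: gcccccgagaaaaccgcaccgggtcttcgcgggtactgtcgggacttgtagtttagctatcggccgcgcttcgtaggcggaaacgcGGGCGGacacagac
Eif1ad: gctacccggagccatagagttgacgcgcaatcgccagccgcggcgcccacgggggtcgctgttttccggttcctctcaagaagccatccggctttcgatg
Eif1ax: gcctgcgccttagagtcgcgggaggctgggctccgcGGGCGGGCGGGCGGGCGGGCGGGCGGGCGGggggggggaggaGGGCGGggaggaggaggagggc

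Over the 250 bases before each start, with both strands searched, 33 of the 50 starts (66.0%) held GGGCGG, against 32.7% of all 32851 starts in the table. CGGAAG, the core of ETS factor sites, was found before 17 starts (34.0%, against 13.6%). CACGTG, an E-box, was found before 10 (20.0%, against 6.02%). CCAAT was found before 13 (26.0%, against 33.8%) and TATAAA before 2 (4.0%, against 12.4%). GGGCGG and CGGAAG can share bases. The 3 genes shown each held GGGCGG and CGGAAG in the longer window. A run of C and T beginning with C at the start itself is a sign of messages under growth-dependent translational control. It was found at 1 start (2.0%, against 2.51%), that of Eif3f. Only the listed first base was searched, so a run beginning some bases away would be missed. Genes without a listed start, Eef1g among them, were not searched. These are matches of letters, and several starts belong to the same gene.

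Across all 40 mice, no translation factor gene passed the threshold for a change with age. The test was limma's moderated test of the slope per 100 days, with sex as a term and an adjusted p under 0.05 over all 16896 spots. The smallest adjusted p among the 48 genes was 0.0537, while 3 spots of the whole array, or 0.0178%, passed. At an unadjusted p under 0.05, 12 of the genes had negative slopes, against 8.32% of all spots, and 1 had a positive slope, against 5.44%. Over the 7151 genes, each also given by its spot of highest mean, the shares were 10.4% and 5.13%. In all, 27 slopes were negative and 21 positive. The median slope was -0.001 z per 100 days, and 0.0019 over the 7151 genes. After a correction for the position of spots on the array, described below, again none of the 48 passed, while 0.118% of all spots did, and the median was 0.0013. The excess of negative slopes was then gone. At an unadjusted p under 0.05, 5 of the 48 had negative and 7 positive slopes, against 7.45% and 4.89% of the 7151 genes. Markers of cell types were followed in the same mice, and only 1 of them passed in the age slope. Of 2 B and plasma cell markers, the immunoglobulin gene Ighm rose (0.2031 per 100 days, limma adjusted p = 0.000325) and Sdc1 was at 0.0026. The sum of both ran from 1.36 to 1.94 in the youngest and from 1.67 to 4.06 in the oldest mice. None of 5 lung epithelial markers passed. In the age slope 1 had an unadjusted p under 0.05 upward and 2 downward. In the step from the youngest to the next group 3 had an unadjusted p under 0.05 downward and 0 upward. The sums of the 5 ran from 0.13 to 2.12 and from -0.72 to 1.56 in these groups. None of 2 endothelial and 3 liver markers passed. The part of these cells in the slopes was not tested.

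**Figure D1:**
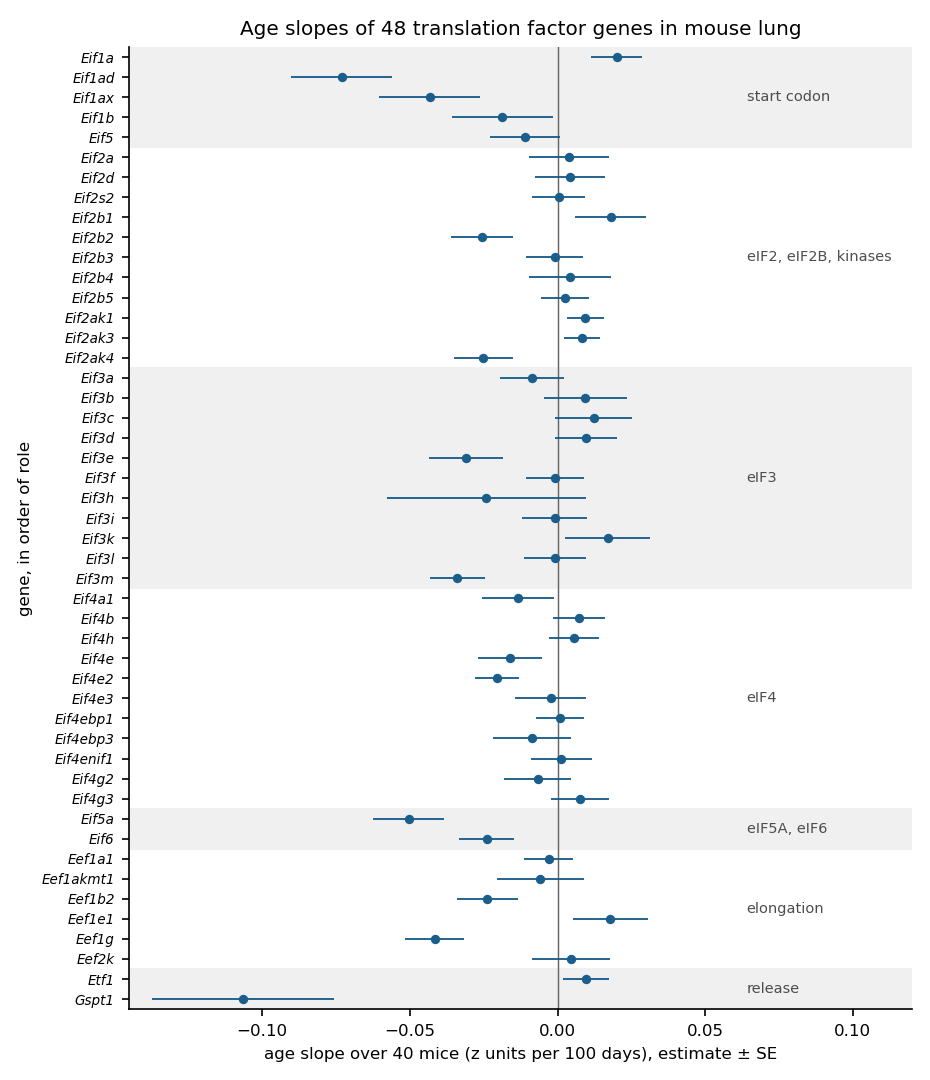
Slopes over all 40 mice for the 48 genes, in order of role from start codon selection at the top to release at the bottom; the horizontal axis is in z units per 100 days, and points with bars are estimates ± SE. Gspt1 lies farthest left at -0.1066, the highest is Eif1a at 0.02, and none passed the threshold.

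Eif1ad, placed with the genes of start codon selection by its name, encodes a nuclear protein with an eIF1A-like domain. It had the smallest unadjusted p of the 48. At 17 to 44 days its level ranged from 1.31 to 2.34 with a median of 1.86. The medians of the next groups were 1.465 (range 1.16 to 2.02) and 1.535 (range 1.14 to 2.17). In the oldest group the median was 1.14 and the range 0.94 to 1.63. Each of the 10 oldest values was under the youngest median and 7 were under the youngest minimum, but the ranges overlapped. The slope was -0.073 (SE 0.0171, limma adjusted p = 0.0537), and -0.0045 after the position correction.

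Eif1ax and Eif1a both encode eIF1A, which scans for the start codon. Eif1ax had medians of 0.17, -0.09, -0.005 and -0.265 from the youngest to the oldest group, with a slope of -0.0433 (SE 0.017, adjusted p = 0.199) that became -0.0146 after the position correction. Eif1a had medians of 1.595, 1.67, 1.73 and 1.75, and its slope of 0.02 (SE 0.00866, adjusted p = 0.264) was the only positive one with an unadjusted p under 0.05. It was 0.0406 after the correction. These slopes differed in sign, although neither passed. Binding of one gene's RNA to the other's spot was not tested. Eif5, which triggers release of phosphate from eIF2, had group medians between 1.425 and 1.59 and a slope of -0.011 (SE 0.0117, adjusted p = 0.769), which became 0.0357 after the correction.

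Of the 11 genes of eIF2, eIF2B and their kinases, none had a slope past the threshold. The eIF2 beta subunit Eif2s2 had medians between 0.32 and 0.4 in the 4 age groups, with a slope of 0.0004 (SE 0.00896). Eif2d, which can deliver initiator tRNA without GTP, had medians between 0.25 and 0.385. Eif2b5, the catalytic subunit of eIF2B, had medians between 1.14 and 1.18. Eif2b1, a regulatory subunit of eIF2B, had medians of 0.24, 0.225, 0.235 and 0.385, and its oldest group spread from 0.05 to 1.24. The amino acid sensor Eif2ak4 (GCN2) had medians of 1.725, 1.54, 1.565 and 1.465 and a slope of -0.0251 (SE 0.00996, adjusted p = 0.205), which became 0.0038 after the position correction. Those of the heme-regulated Eif2ak1 were 1.56, 1.685, 1.61 and 1.685 (slope 0.0094, SE 0.00626). The unfolded protein sensor Eif2ak3 (PERK) varied least of the 48 between mice of a sex and age group, with a residual SD of 0.083, and had medians between -0.86 and -0.765.

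Among 11 subunits of eIF3, the scaffold that binds the small subunit, Eif3m had the largest departure from 0 in units of its error. Its medians were -0.37, -0.5, -0.545 and -0.585, and 5 of the 10 oldest values were under the youngest minimum. The slope was -0.0339 (SE 0.00926, adjusted p = 0.0537). Eif3e had medians of 0.005, -0.135, -0.08 and -0.105 and a slope of -0.031 (SE 0.0125, adjusted p = 0.213) that became 0.0177 after the position correction. Eif3a, the largest subunit, had medians between 0.405 and 0.455 (slope -0.0087, SE 0.0109), and Eif3d, which can bind the cap itself, between -0.25 and -0.135 (slope 0.0096, SE 0.0106). Eif3h varied most of the 48 genes, with a residual SD of 0.626 against a median of 0.187 over the 48 and 0.188 over all genes. Its values ran from -3.73 to -1.52 at 169 to 194 days and from -3.45 to -0.88 at 704 to 743 days.

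No gene of the eIF4 role, which covers cap binding and its control, had a slope past the threshold. The cap-binding protein Eif4e had medians of 0.87, 0.85, 0.77 and 0.67 and a slope of -0.016 (SE 0.0108, adjusted p = 0.577). Its inhibitor Eif4ebp1 had medians of -0.975, -1.07, -1.02 and -1.045 and a slope of 0.0008 (SE 0.00799). The helicase Eif4a1 had medians between 0.135 and 0.3, its cofactor Eif4b between 0.2 and 0.305, and Eif4g2, a scaffold for cap-independent initiation, between 0.53 and 0.63. In each of these the ranges of the youngest and oldest mice overlapped.

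Eif5a, which helps ribosomes past difficult peptide bonds, had values from 0.52 to 1.28 (median 0.96) in the youngest group and from 0.23 to 0.81 (median 0.49) in the oldest, with medians of 0.645 and 0.745 between. Here 6 of the 10 oldest values were under the youngest minimum. The slope was -0.0504 (SE 0.0121, adjusted p = 0.0537), and -0.02 after the position correction. Eif6, which keeps ribosomal subunits apart, had medians of 0.885, 0.76, 0.74 and 0.67 (slope -0.024, SE 0.00924, adjusted p = 0.188, and 0.0072 after the correction).

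In elongation, Eef1g, the gamma subunit of eEF1B, had medians of 2.05, 1.865, 1.83 and 1.735. The range was 1.76 to 2.4 in the youngest and 1.52 to 1.9 in the oldest, and 5 of the oldest values were under all of the youngest. The slope was -0.0416 (SE 0.0101, adjusted p = 0.0537), and -0.0136 after the position correction. Eef1b2, the alpha subunit of eEF1B, had medians of 0.48, 0.425, 0.42 and 0.25 and a slope of -0.0238 (SE 0.0103, adjusted p = 0.26), which became 0.0123 after the correction. Eef1a1 had medians between 1.33 and 1.415, with a slope of -0.003 (SE 0.00836). Those of Eef1e1, the scaffold protein that the name rule brings in, lay between -0.435 and -0.325 (slope 0.0178, SE 0.0127). Among the release factors, Gspt1 ranged from 1.52 to 3.45 (median 2.545) in the youngest group, had medians of 1.88 and 2.045 in the next groups, and ranged from 1.03 to 2.3 (median 1.565) in the oldest. The slope was -0.1066 (SE 0.0308, adjusted p = 0.0636), and -0.0525 after the position correction. Its partner Etf1 had medians between -0.185 and -0.115 and a slope of 0.0095 (SE 0.00779).

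The smallest adjusted p values lay just above the threshold, and leaving out 1 mouse was enough to move them. In 11 of the 40 such fits 3 to 5 members passed (6.25% to 10.4% of the 48), all downward, while 1.54% to 3.73% of all spots passed. Eif1ad, Eif5a and Eef1g passed in all 11, and Eif3m and Gspt1 in 8. The mice concerned were the males of 43, 40, 186, 194, 476, 743 and 730 days and the females of 33, 193, 194 and 180 days. With log2 of age in place of age 9 members passed (18.8%), all downward, while 7.03% of all spots did. The title numbers of the mice run in 5 successive rounds, each with 1 mouse of every sex and age group, and with the rounds as a block 5 members passed (10.4%), all downward, against 2.39% of all spots. They were Eif1ad (-0.0731, limma adjusted p = 0.0377), Eif5a (-0.0505, 0.0377), Eef1g (-0.0416, 0.0378), Eif3m (-0.0338, 0.0383) and Eif4e2, a relative of Eif4e named after its value was seen (-0.0205, 0.0449). Gspt1 was at -0.1065 (adjusted p = 0.0508). The labels do not say what a round stands for, and this block was chosen after seeing the data.

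**Figure D2:**
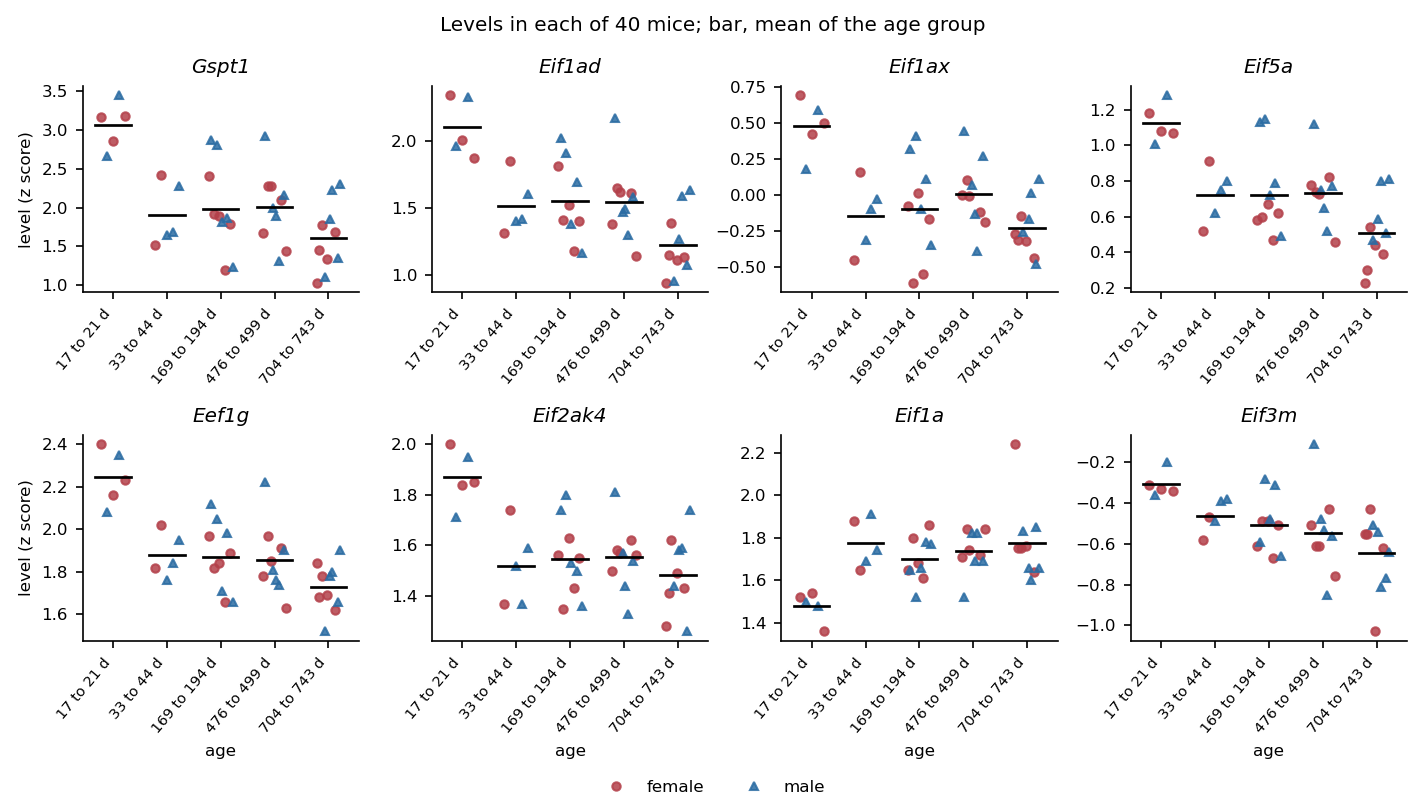
Levels in each of the 40 mice for 8 genes, 7 that passed the threshold within the youngest group and Eif3m; each panel has its own vertical axis in z scores, circles are females, triangles males, and the bar is the mean of the 5 or 10 mice. In Gspt1 the 5 mice of 17 to 21 days sit at 2.67 to 3.45, and the 5 of 33 to 44 days at 1.52 to 2.42, within the range of older mice.

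The youngest group itself divided at a gap in age, with 5 mice of 17 to 21 days, around weaning (the younger 5), and 5 of 33 to 44 days (the older 5). Between these sets 6 translation factor genes fell and 1 rose: Gspt1, Eif1ax, Eif1ad, Eif5a, Eef1g and Eif2ak4 were lower at 33 to 44 days, and Eif1a was higher. The other 41 did not pass. Of all spots 7.48% passed, 5.52% downward and 1.96% upward, so that the count of 7 among 48 has to be read against a wide change on these arrays. At an unadjusted p under 0.05, 10 of the 48 had negative and 5 positive differences, against 10.2% and 9.24% of all spots. Over the 7151 genes the shares were 12.6% and 8.42%. The median difference was -0.0467 z, and 0.0042 over all genes.

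Gspt1 (spot 452) read 3.17, 2.67, 2.86, 3.45 and 3.18 in the mice of 17 to 21 days and 1.52, 2.42, 1.65, 1.68 and 2.28 in those of 33 to 44 days. The sets did not overlap, and the older 5 differed by -1.145 (SE 0.191, limma adjusted p = 0.0117), the largest difference of the 48 in size. Eif1ax (spot 9909) read 0.69, 0.18, 0.42, 0.59 and 0.5 and then -0.45, 0.16, -0.31, -0.1 and -0.03. All of the older 5 lay below all of the younger 5, the nearest pair being 0.16 and 0.18 (difference -0.607, SE 0.127, adjusted p = 0.0176). Eif1ad (spot 12241) read 2.34, 1.96, 2.01, 2.33 and 1.87 and then 1.31, 1.85, 1.4, 1.42 and 1.6 (difference -0.582, SE 0.129, adjusted p = 0.0207). The nearest pair was a female of 40 days at 1.85 and one of 21 days at 1.87.

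Eif5a (spot 15189) had a mean of 1.124 ± 0.106 (SD, n = 5) in the younger 5 and 0.72 ± 0.153 in the older 5, with no overlap (difference -0.408, SE 0.0925, adjusted p = 0.0226). Eef1g (spot 12261) had 2.244 ± 0.132 and 1.878 ± 0.105, again with no overlap (difference -0.354, SE 0.0864, adjusted p = 0.0289). Eif2ak4 (spot 9140) had 1.87 ± 0.112 and 1.518 ± 0.157, and here the sets overlapped, since 1 older mouse at 1.74 lay above the lowest younger one at 1.71 (difference -0.339, SE 0.0927, adjusted p = 0.0448). Eif1a (spot 10875) rose from 1.48 ± 0.071 to 1.774 ± 0.115 with no overlap (difference 0.291, SE 0.0797, adjusted p = 0.0455).

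Eif3e, Eif2b2 and Eif3m also had the older 5 wholly below the younger 5 without passing the threshold (adjusted p = 0.0919, 0.0905 and 0.193). That made 8 of the 48 genes with no overlap downward, against 5.85% of all spots, and 1 upward, against 2.83%. Eif6 differed by -0.299 (SE 0.0932, adjusted p = 0.0738) with overlapping sets. On the other side Eif5 differed by 0.263 (SE 0.106, adjusted p = 0.169), Eif3d by 0.266 (SE 0.108, adjusted p = 0.187), Eif3h by 0.358 (SE 0.153, adjusted p = 0.213) and Eef1e1 by 0.243 (SE 0.108, adjusted p = 0.232). Within eIF3 the signs differed in the deposited values: Eif3e differed by -0.361 and Eif3d by 0.266, neither past the threshold. With spot position corrected both were positive, at 0.069 and 0.0673. Of the elongation factors, Eef1g, Eef1b2 and Eef1a1 differed by -0.354, -0.209 and -0.118, and only Eef1g passed. After the position correction described below they were at -0.115, 0.188 and 0.0895.

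The spots of the genes that fell lay in several blocks and on both tables, but mostly in the same few columns. Spots are numbered in an order that fits 16 blocks of 24 lines and 22 columns, and on table B the columns 7 to 10 and 12 held most of the falls. These columns were chosen after the values were seen, so their counts are a description. They held 23 translation factor spots, of which 21 had negative differences, 11 fell and 1 rose. All 1920 spots of these columns gave 634 falls and 31 rises. None of the 20 translation factor spots in the other columns of table B passed, where 107 of all 6528 spots fell and 293 rose. On table A 1 of 54 spots passed, against 191 falls and 8 rises among all 8448: it was Gspt1 spot 452 in column 12, where all 68 passing spots of any gene fell. The age slope over 40 mice had the same columns. At an unadjusted p under 0.05, 16 of the 23 spots in columns 7 to 10 and 12 of table B had negative slopes and 1 a positive one. In the other columns of table B 0 of 20 had negative slopes at that level, and on table A 3 of 54, against 8.32% of all spots.

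**Figure D3:**
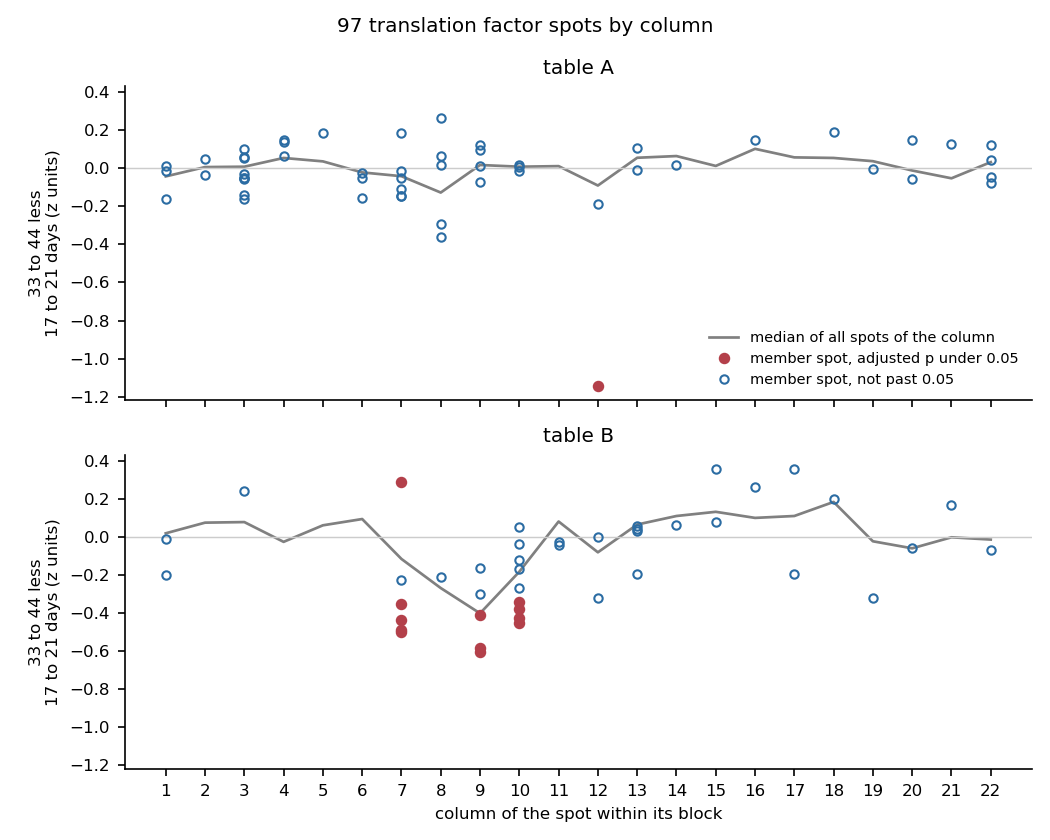
Difference between mice of 33 to 44 and 17 to 21 days (vertical, z units) for all 97 translation factor spots against the column of the spot (horizontal), table A above and table B below; filled points passed the threshold and the grey line is the median of all spots of the column. On table B the line dips in columns 7 to 10, where 11 member spots fell and 1 rose.

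To correct for position, every spot's value was reduced by how far the spots sharing its block and column departed, at the median, on that array. After it no translation factor gene passed, the smallest adjusted p being 0.054, and none of the 16896 spots did, 0.0% of them. The difference of Eif1ad went from -0.582 to 0.0106, that of Eif2ak4 to -0.0041, of Eif5a to -0.0887 and of Eef1g to -0.115. Gspt1 had a difference of -0.512 (SE 0.112, adjusted p = 0.0618) and Eif1ax one of -0.242 (SE 0.0692, adjusted p = 0.113). Some differences grew: that of Eif1a from 0.291 to 0.57 (adjusted p = 0.0556) and that of Eif5 from 0.263 to 0.7 (adjusted p = 0.054). Other spots of these genes did not share this. Those of Eif5 went from 0.1 to 0.0572, from 0.0675 to 0.0677 and from -0.0008 to -0.0798. Those of Eif1a were at -0.055, -0.0193 and -0.0073 after the correction. The median over the 48 genes became 0.002.

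**Figure D4:**
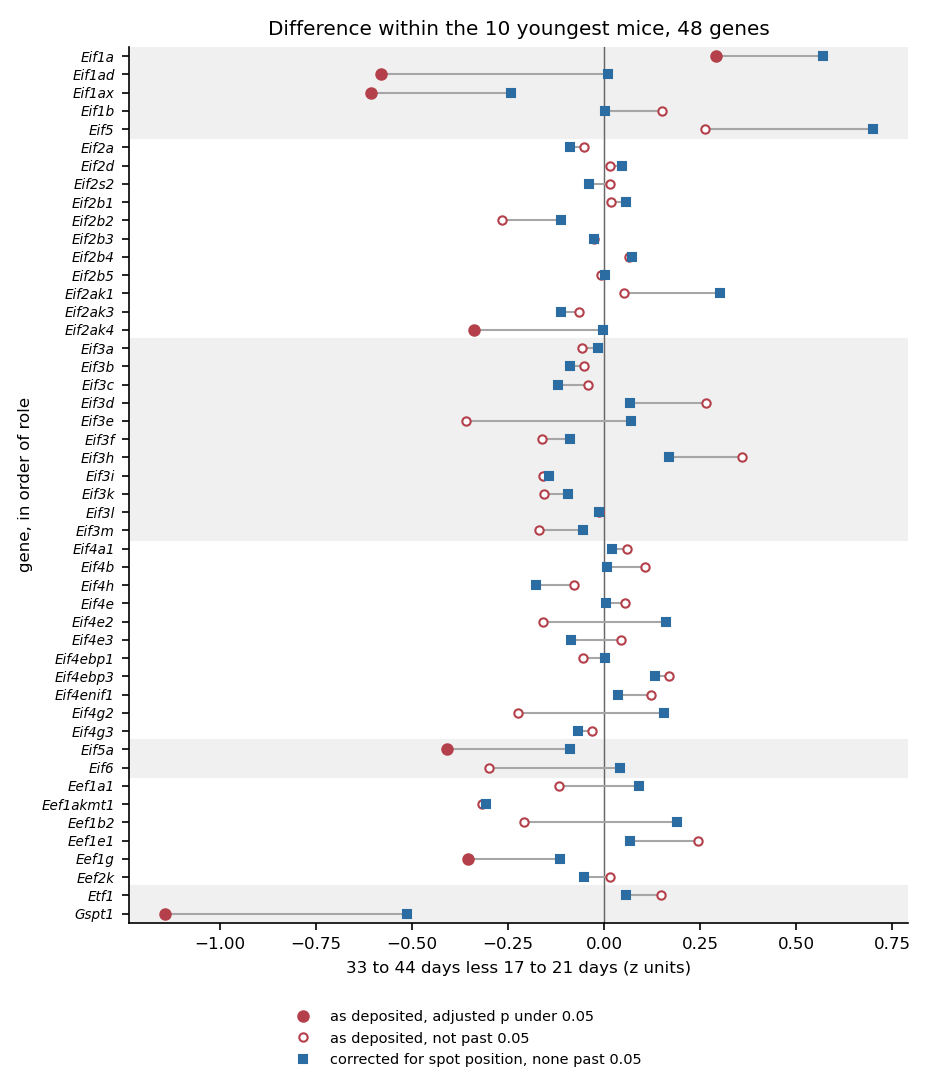
Difference between mice of 33 to 44 and 17 to 21 days for the 48 genes in order of role (horizontal axis in z units); circles are the deposited values, filled where the adjusted p was under 0.05, and squares the values after the position correction, joined by a line. Gspt1 moves from -1.145 to -0.512, and no square passed.

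Hemoglobin and other red cell genes changed in the same mice. All 6 measured erythroid and blood markers (Hba-a1, Hba-a2, Hba-x, Hbb-y, Alas2 and Fech) fell between these sets. Binding of one globin's RNA to another's spot was not tested. The median difference of the 6 was -0.586, and -0.256 after the position correction, when no spot of any gene passed. Their summed z score ran from 9.59 to 11.81 at 17 to 21 days and from 5.61 to 8.38 at 33 to 44 days. Of the 6, 5 had a mean above 0, and 5 lay in columns 7, 8, 9 or 12 of their tables. At 704 to 743 days the sum ran from 4.73 to 8.33. In the age slope over 40 mice none of the 6 passed, while all 6 had an unadjusted p under 0.05 downward. Their median slope was -0.0412, and -0.029 after the position correction. The part of red cells, or of position, in the falls and slopes of the translation factor genes was not tested. The 2 mice with title numbers above 46, the male of 40 days and the female of 33 days, were both among the older 5. With that division as a block no member passed (smallest adjusted p = 0.0782), and Gspt1 differed by -0.912. With the 5 rounds as a block none passed either, with Gspt1 at -0.727 (adjusted p = 0.338), when 1 of all spots did. Some rounds held youngest mice of the same set only, so that fit had little to compare and cannot decide whether the falls depend on the rounds. The count of 7 also rested on single mice. It was 0 without the male of 19 days or the female of 33 days, when no spot of any gene passed. It was 1 without the female of 17 days (2.42% of all spots passed), 3 without the female of 21 days (2.68%), and 4 without the male of 40 days (5.46%).

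Where a gene had several spots, they often disagreed. The 23 genes gave 102 pairs of spots, compared over the 40 mice with a permutation test of 100000 resamples and adjustment over the pairs. Of these pairs, 20 correlated positively and 6 negatively at an adjusted p under 0.05 by Pearson's r, and 23 and 5 by Spearman's rho, with a median r of 0.105. After the position correction the numbers were 10 and 2 by Pearson's r and 7 and 2 by Spearman's rho, with a median r of 0.043. The pairs share mice, and pairs of a table also share arrays. In the age slope, all spots of a gene had the same sign in 8 of the 23 genes, and within the youngest mice in 11.

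The 4 spots of Gspt1 lie on both tables and all had negative differences within the youngest mice: -1.145 (spot 452), -0.502 (spot 11645, adjusted p = 0.0154), -0.453 (spot 12000, adjusted p = 0.0293) and -0.292 (spot 5442, adjusted p = 0.2). Over 40 mice the 6 pairs had r from 0.675 to 0.942. For spots 452 and 11645, on different tables, r was 0.942 and rho 0.931 (permutation p = 1e-05 for both, the smallest the test can give, adjusted p = 7.29e-05 and 8.50e-05), and r was 0.925 without the 2 mice farthest from the median. The 2 spots lie in column 12 of table A and column 7 of table B. After the position correction r for this pair was 0.477 and rho 0.362 (permutation test, adjusted p = 0.0207 and 0.151), and no other Gspt1 pair passed. The differences within the youngest mice were then -0.512 (spot 452), -0.0902 (11645), -0.0998 (12000) and 0.002 (5442). Without the correction the mean of all 4 spots differed by -0.598 within the youngest mice (limma adjusted p = 0.0233).

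Eef1g was split in 2 sets. Spots 12261, 12305, 12308 and 12349 lie in 1 block of table B, all fell within the youngest mice (by 0.354 to 0.49 z), and had r from 0.868 to 0.978 among themselves. Spot 16312 in another block of table B differed by -0.0375, and spots 2688 and 4398 on table A by 0.138 and 0.15, none past the threshold. So the call for Eef1g came from 1 block. The mean of all its spots differed by -0.208 (limma adjusted p = 0.162). After the position correction the spots of that block differed by -0.115, -0.198, -0.102 and -0.251, and those elsewhere by 0.0284, 0.11 and 0.128, none past the threshold. Spots 12261, 12305 and 12349, which share a column of the block, then had r from 0.833 to 0.914. Their r with spot 12308, in another column, ran from 0.293 to 0.46.

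**Figure D5:**
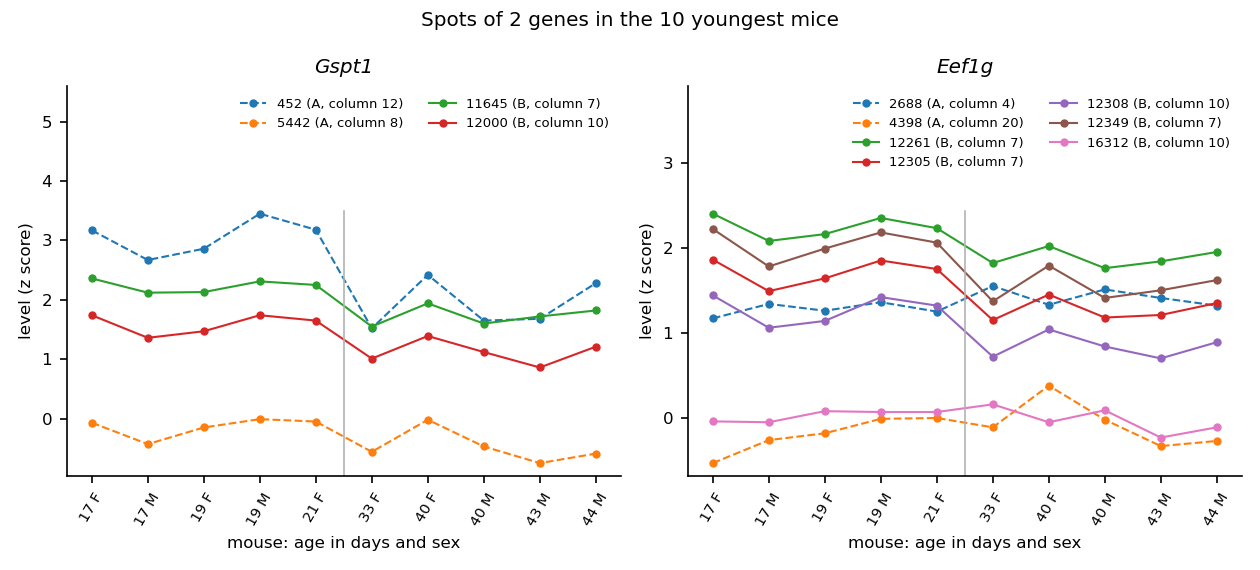
Levels (vertical, z score) of the 4 Gspt1 spots, left, and the 7 Eef1g spots, right, in the 10 youngest mice, ordered by age with F for female and M for male; dashed lines are table A, solid lines table B, and the vertical line parts 17 to 21 from 33 to 44 days. All 4 Gspt1 spots have a lower mean in the older 5, though spot 5442 did not pass; of the Eef1g spots the 4 of 1 block fell, and the other 3 differed by -0.0375 to 0.15 without passing.

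For the rest, the rise of Eif1a was seen in 1 of its 4 spots: the others differed by -0.0708, -0.0492 and -0.0333. The second Eif1ax spot differed by 0.0425 against -0.607 in the first, and r between the 2 was -0.152 (permutation test, adjusted p = 0.519). Eif4g3, a scaffold of the cap complex, fell at spot 10064 in column 10 of table B (-0.381, limma adjusted p = 0.0293), but not at its spot of highest mean (-0.0308). For Eif4g2, spots 9907 and 16889 ran opposite, with r = -0.752 and rho = -0.799, but r was 0.071 and rho 0.14 after the position correction. Of the 3 Eef1a1 spots, 10790 and 15701 had r = 0.61 and rho = 0.676, and 0.586 and 0.629 after correction. The third, 10220, had r of -0.086 and -0.056 with them, and -0.039 and -0.277 after correction. Within the youngest mice the 3 differed by -0.118, 0.0808 and -0.0008, none past the threshold. Eif1ad, Eif5a and Eif2ak4 had 1 spot each and no second one to compare.

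Adult ageing alone gave no call, though the slope over 30 mice recovered only 37% of simulated slopes of 0.05, and 91% of 0.1. Over the 30 mice of 169 days or older, 0 of the 48 genes and 0.0% of spots passed, and 3 genes against 2.59% of spots had an unadjusted p under 0.05. All 3 slopes were negative, with the smallest p for Eif1ad (-0.0589, SE 0.0216) and Eif5a (-0.0383, SE 0.0154), and the positive slopes of smallest p were those of Eif4ebp1 (0.019, SE 0.0113) and Eif2b1 (0.0311, SE 0.0188), each with a limma adjusted p of 1. In the step from 17 to 44 to 169 to 194 days again 0 genes and 0.0% of spots passed, and 6 genes against 5.94% of spots had an unadjusted p under 0.05 (smallest limma adjusted p = 0.819). Those of smallest p in each direction were Eef1g (-0.191, SE 0.0777), Eif4ebp1 (-0.141, SE 0.0599), Eif2ak1 (0.102, SE 0.046) and Eif1a (0.071, SE 0.0683). From 169 to 194 days to 704 to 743 days, 0 genes and 0.00592% of spots passed. Here 2 genes against 2.5% of spots had an unadjusted p under 0.05, Eif1ad (-0.325, SE 0.131) and Eif5a (-0.214, SE 0.089), while Eif2b1 (0.175, SE 0.0866) and Eif4ebp1 (0.099, SE 0.0599) had the positive differences of smallest p. Without the female of 704 days at 1.24, Eif2b1 was at 0.095, and at 0.0158 in the slope over 30 mice. Without the male of 193 days, Eif4ebp1 was at 0.0512 and 0.0106. The smallest limma adjusted p of the 48 was 0.999.

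Males and females did not differ past the threshold in any of the 48 genes, nor in any spot (0.0%). An unadjusted p under 0.05 was found for 3 genes, against 1.45% of spots: Eif4a1 (male less female 0.145, SE 0.0657), Eif5a (0.13, SE 0.0629) and Eif2ak1 (-0.067, SE 0.0326). Each had a limma adjusted p of 1. Eif2d followed on the female side (-0.102, SE 0.0654). The age slope was also not shown to differ by sex: 0 genes and 0.0% of spots passed, and 1 gene, Eif2ak3, against 2.01% of spots had an unadjusted p under 0.05 (male slope less female slope 0.0249, SE 0.0115). Eef1b2 (0.0228, SE 0.0205), Eif2b1 (-0.0441, SE 0.0236) and Eif3a (-0.0362, SE 0.0212) came next in their directions, and the smallest limma adjusted p was 0.999.

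Other genes of the translation pathway were taken from fixed lists. Of 40 genes of translation control 26 were measured; none passed in the age slope, and within the youngest mice 0 rose and 4 fell. These were Pabpc4, a poly(A)-binding protein (-0.945, SE 0.168, limma adjusted p = 0.0132), Tsc1, a brake on mTORC1 (-0.509, SE 0.0926, adjusted p = 0.0154), Mknk2, an eIF4E kinase (-0.51, SE 0.107, adjusted p = 0.0173), and Fmr1, a translational repressor (-0.531, SE 0.123, adjusted p = 0.0246). After the position correction their differences were -0.515, -0.042, -0.131 and -0.124. The median of the list was -0.0375, against 0.0042 over all genes. The positive differences of smallest p were those of Pdpk1 (0.199) and Larp1 (0.244). In the age slope Tsc1 (-0.0483) and Pabpc4 (-0.0918) had the smallest p downward and Ddx3x (0.0241) and Abce1 (0.0124) upward.

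Of 5 mitochondrial translation factors and 25 tRNA synthetases, none passed in either comparison. The medians within the youngest mice were -0.0342 and -0.035, and those of the age slope 0.0036 and 0.0013. Within the youngest mice the smallest p upward and downward belonged to Mtif2 (0.0642), Gfm1 (0.025), Gfm2 (-0.113) and Tsfm (-0.157) among the mitochondrial factors and to Vars2 (0.221), Sars2 (0.203), Gars (-0.299) and Lars (-0.204) among the synthetases. In the age slope they belonged to Tufm (0.0134), Mtif2 (0.0036), Tsfm (-0.0181) and Gfm2 (-0.004), and to Lars (0.0285), Vars2 (0.0188), Tars (-0.0165) and Wars2 (-0.0207).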

How the data were processed

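For 40 mice, lung RNA was hybridised as radioactive cDNA to 80 arrays. The deposited values are a score per spot: tested on the files, the 8448 spots of every array average 0 with unit SD. What the authors did before that (scale, background, filters) is not given in the sources used here, so depth and signal over background are unknown, and the number of arrays sets the precision. Groups, ages and sexes came from the labels; nothing says how the lungs were divided, so p-values measure the spread between these mice. A male of 714 days carries a description that belongs to a different animal; it was kept and left out in an alternative. Gene symbols came from the platform annotation, and all 97 spots matched RefSeq gene numbers (GRCm38.p6).

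Models were fitted with limma 3.58.1 under R 4.3.3 (lmFit, eBayes, two-sided) in each table over all spots, with Benjamini-Hochberg adjustment over 16896 spots and a threshold of 0.05, in 7 comparisons. Levels were not compared between tables. The members and lists were chosen with earlier results of these data known, as were the promoter motifs and the columns of table B singled out. Named genes were those past the threshold, those of smallest p per direction (5 in the age slope and within the youngest mice, 2 elsewhere) and those listed by role; Eif2b2, Eif3f, Eif4e2 and Eif4g3 were added after their values were seen. Fits were tested on simulated independent values with 100 changed spots per size among 16896: 75% were recovered at a slope of 0.05 over 40 mice, and within the youngest mice 39% at a difference of 0.5 and 95% at 1. At a difference of 0.25, 22% were recovered from the youngest to the next group, 27% from that to the oldest, and 57% between the sexes. For the difference of slopes by sex 10% were recovered at 0.05 and 48% at 0.1. Alternatives were quantile normalization, omission of the dimmest 33.3% of spots, eBayes with trend and robust settings, spot position, title number above 46 as a block or alone, 5 rounds of title numbers as a block (added after seeing the data), log2 of age, the mean of a gene's spots and each mouse left out. Figures used matplotlib 3.10.9 in Python 3.11.15.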

Additional observations from a re-analysis of the deposited data

Results flagged for a closer look

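In the 15 genes with the smallest p or past the threshold in the age slope and within the youngest mice, 90 groups of 5 or 10 mice were examined for a mouse far from the others, and 7 were found; chance gives about 1 in 20. Each lay apart from the next mouse by more than Dixon's 95% critical share of the group's range. For Eif1a, a male of 476 days had 1.52 (next mouse 1.69) and a female of 704 days 2.24 (next 1.85). For Eif1ad, a male of 476 days had 2.17 (next 1.65). For Eif2b1, a female of 169 days had -0.26 (next 0.11), a female of 481 days 0.01 (next 0.17) and a female of 704 days 1.24 (next 0.55). For Eif3d, a female of 17 days had -0.74 (next -0.35).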

How the results depend on the processing

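In the 5 comparisons other than the age slope over 40 mice and the one within the youngest mice, no member passed under any alternative run. In the age slope the count of members went from 0 to 4 of 38 without the dimmest spots (4.07% of all spots passed there), 3 of 48 with trend and robust settings (0.698%), 5 with rounds of title numbers as a replicate block (2.39%) and 9 with log2 of age (7.03%), and from 0 to 5 over the fits leaving out 1 mouse. Within the youngest mice the count of 7 became 0 after the position correction, with later title numbers as a block (also with 46 counted as later, a division added after seeing the data), with the rounds as a block and with title numbers up to 46 only, and 3 with the mean of all spots of a gene (6.17% of all spots and gene means passed). Leaving out 1 mouse gave 0 to 8. The cause of these moves was not tested, except that fewer mice or spots were fitted in some. The agreement of spots of 1 gene fell from 20 to 10 positive pairs by Pearson's r after the position correction, and from 23 to 7 by Spearman's rho. The labels pair no mice, so the rounds, a block added after seeing the data, rest on title order alone. Deviations from the group means correlated within rounds with a mean r of 0.092 (table A) and 0.231 (table B), against -0.021 and -0.053 between rounds, but 69 and 45 of 140 pairs were under 0.1, so pairing was not taken as shown. Title numbers above 46 alone could not be fitted within the youngest mice, where both such mice were among the older 5.

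Some estimates changed sign, none past the threshold afterwards. For the age slope, the position correction gave Eef1a1 0.014, Eef1b2 0.0123, Eif2ak4 0.0038, Eif3a 0.0014, Eif3e 0.0177, Eif4b -0.0024, Eif4g2 0.0178, Eif5 0.0357 and Eif6 0.0072. Title numbers above 46 only gave Eif2ak1 -0.002, Eif1ax 0.0017, Eif2s2 -0.0096, Eif2b5 -0.0108, Eif3h 0.0318, Eif4g2 0.0199 and Eif6 0.0042. Title number as a block gave Eif2s2 -0.0006 and Eif4g2 0.0046, or -0.001 and 0.0026 with 46 counted as later. The mean of all spots gave Eef1a1 0.0057, Eif2s2 -0.0049, Eif2b5 -0.0006 and Eif5 0.0003. Log2 of age gave Eif2b5 -0.0004 and Eif4ebp1 -0.0093, title numbers up to 46 only gave Eif4ebp1 -0.0067, quantile normalization gave Eef1a1 0.0049, and leaving out the male of 714 days gave Eif2s2 -0.0023. With 1 mouse left out, Eef1a1 ran from -0.0054 to 0.0009, Eif2s2 from -0.0031 to 0.005 and Eif4ebp1 from -0.0031 to 0.003.

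Within the youngest mice, the position correction gave Eif1ad 0.0106, Eef1a1 0.0895, Eef1b2 0.188, Eif2s2 -0.0393, Eif2b5 0.0015, Eif3e 0.069, Eif4ebp1 0.0027, Eif4g2 0.155 and Eif6 0.04. Either division of later titles as a block gave Eif2s2 -0.0645, Eif2b1 -0.0461 and Eif4ebp1 0.0125. The rounds as a block gave Eif2s2 -0.0193, Eif2b1 -0.0414, Eif3a 0.055 and Eif4ebp1 0.0221. Title numbers up to 46 only gave Eif2s2 -0.06, Eif2b1 -0.0514, Eif2ak1 -0.0043 and Eif4ebp1 0.0229. The mean of all spots gave Eif2s2 -0.126, Eif2b5 0.0446, Eif3a 0.0045, Eif4b -0.0017, Eif4e -0.0961 and Eif4g2 0.052. With 1 mouse left out, Eif2s2 ran from -0.0497 to 0.11, Eif2b1 from -0.0292 to 0.07, Eif2b5 from -0.0536 to 0.0479 and Eif4ebp1 from -0.116 to 0.0067. Title numbers above 46 only also gave Eif2ak1 -0.025, Eif1a -0.06 and Eef1g 0.18 in the step from 17 to 44 to 169 to 194 days, Eif2d 0.105 between the sexes, and Eif2ak3 -0.003 and Eef1b2 -0.0089 in the difference of slopes.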
